A study of Homo sapiens with 6 samples.

Results

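The genes examined encode proteins of the DNA replication fork and thymidine kinase 1: TK1, FEN1, PCNA and the minichromosome maintenance genes MCM2 to MCM7. Members were all array probes whose platform gene symbol was one of these 9, which gave 7 genes of 4604 and 17 probes of 15246. TK1 had 4 probes, PCNA 3, MCM2 4, MCM4 3, and FEN1, MCM5 and MCM7 had 1 each; MCM3 and MCM6 were not analysed here. All 17 probes had a value on all 6 arrays.

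The arrays were 2-colour spotted arrays hybridised with RNA from Jurkat cells, an established human T-cell leukaemia line. On each array, Cy5-labelled RNA came from cells transfected with siRNA against RPS3, which encodes a small-subunit ribosomal protein, or against the NF-kB subunit p65, the product of RELA. The Cy3-labelled RNA came from Jurkat cells given nonspecific siRNA. Cells of both channels received anti-CD3/CD28 (1 ug), which engages the T-cell receptor, for the same time of 1, 3 or 6 h, and every siRNA had 1 array per time. The values are log2 ratios of siRNA over control, centred on the median of each array, so a value of 0 means the same level as the control relative to the typical probe. The direction is likely rather than settled, since the deposited values do not state it, and the log base was read as 2. The control RNA of the RPS3 and p65 arrays of a time may be the same, which the labels do not say. After the mean of a siRNA, ± is the SD over its 3 arrays (n = 3). After a difference between the siRNAs, ± is the SD of the 3 differences at matched times. The intervals and p-values of the main fit do not match the times, so they describe another spread. A single time had no replicate.

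MCM2 to MCM7 form a hexameric ring that is loaded onto origins of replication in G1 and then unwinds DNA as the core of the replicative helicase. PCNA is the sliding clamp that holds DNA polymerases on the template, and FEN1 is the flap endonuclease that trims Okazaki fragments. TK1 phosphorylates thymidine in the salvage pathway of deoxynucleotide supply, and its transcript and protein are highest in S phase. Transcription of these genes at the G1/S boundary is a classical output of the E2F factors, and in resting T cells it follows receptor stimulation only after hours of growth, whereas Jurkat cells cycle continuously.

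Upstream sequence is shown for TK1 and FEN1, the members that differed most between the siRNAs, and for PCNA and MCM7, whose slopes over time had opposite signs. RefSeq (GRCh38.p14) gave promoter entries for 5 of the 7 genes, 9 entries in all; MCM4 and MCM5 are named only. Each run holds the 250 bases before an annotated start, 5′ to 3′ on the strand of the gene. Capitals mark matches, on either strand, to CCAAT or to an E2F word, TTTCCCGC, TTTCGCGC, TTTGCCGC or TTTGGCGC.
TK1 (chr17:78187053-78187302, minus strand, the more downstream of 2 starts): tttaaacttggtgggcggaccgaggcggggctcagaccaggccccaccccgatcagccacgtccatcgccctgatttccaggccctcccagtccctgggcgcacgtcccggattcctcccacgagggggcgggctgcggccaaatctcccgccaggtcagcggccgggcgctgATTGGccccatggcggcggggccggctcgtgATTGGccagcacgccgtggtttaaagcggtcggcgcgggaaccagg
FEN1 (chr11:61792661-61792910, plus strand): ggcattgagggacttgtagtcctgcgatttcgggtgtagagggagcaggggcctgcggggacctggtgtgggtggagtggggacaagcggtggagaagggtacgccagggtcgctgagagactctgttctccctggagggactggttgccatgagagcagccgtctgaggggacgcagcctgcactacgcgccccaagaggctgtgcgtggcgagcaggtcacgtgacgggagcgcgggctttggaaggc
PCNA (chr20:5126623-5126872, minus strand, the more upstream of 2 starts): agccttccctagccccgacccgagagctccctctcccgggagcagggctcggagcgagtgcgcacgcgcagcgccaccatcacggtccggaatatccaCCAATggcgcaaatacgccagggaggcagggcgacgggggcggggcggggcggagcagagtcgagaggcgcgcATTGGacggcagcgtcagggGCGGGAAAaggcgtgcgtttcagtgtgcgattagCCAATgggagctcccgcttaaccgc
MCM7 (chr7:100101398-100101647, minus strand, the most upstream of 3 starts): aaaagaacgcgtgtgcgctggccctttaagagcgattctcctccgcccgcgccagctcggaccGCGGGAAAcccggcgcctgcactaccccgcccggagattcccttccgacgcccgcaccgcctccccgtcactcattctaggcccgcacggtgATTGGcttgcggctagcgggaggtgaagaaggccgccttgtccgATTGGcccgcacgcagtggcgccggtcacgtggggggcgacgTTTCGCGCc

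An E2F word lay in the printed windows of PCNA (first base 59 bases before the start) and MCM7 (187 and 9 bases before), and in none of the printed bases of TK1 and FEN1. Of all 35116 promoter entries, 2.79% held an E2F word in the same 250 bases. For TK1, PCNA and MCM7 the printed window was the one, among the starts of the gene, with the most matches. Shares of all entries count every start, so they are not a matched background for the printed windows. CCAAT lay in the windows of PCNA (3 matches), TK1 (2) and MCM7 (2), against 32% of all entries. The other start of TK1 held neither motif, the other starts of PCNA and MCM7 held CCAAT but no E2F word, and MCM2 held neither before its start but an E2F word from its base 3 onward. These are matches of letters and do not show binding.

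As a check of the labels, the knockdown targets came first. With RPS3 siRNA the RPS3 transcript stood at -2.50, -2.53 and -1.44 after 1, 3 and 6 h, and with p65 siRNA at 0.11, 0.01 and 1.11. RELA stood at -0.41, -0.46 and -0.59 with p65 siRNA and at -0.39, -0.69 and -0.54 with RPS3 siRNA, so its level did not separate the groups. Blank cells made up 5.40% to 10.1% of the 4 arrays at 1 and 3 h and 14.8% to 15.1% of both arrays at 6 h. Ratios hold no levels, so markers could not test the identity of the cells. T cell markers, of which 17 of 22 were tested, had medians between -0.16 and 0.05 at 1 and 3 h and of 0.48 and 0.25 on the RPS3 and p65 arrays at 6 h. Markers of other lineages (22 of 33 tested) had medians between -0.04 and 0.28, the highest on the p65 array at 3 h.

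The series asks what RPS3 does beside p65, and for these genes the question is whether S phase transcripts were lower after RPS3 siRNA. No member passed the test against control with either siRNA, nor the test of the difference between the siRNAs or of the slope over time, by limma with Benjamini-Hochberg adjustment over 7267 features (lowest adjusted p of the 7 genes 0.513 with RPS3 siRNA, 0.936 with p65 siRNA, 0.9996 for the difference and 0.0866 for the slope). TK1 and FEN1 were the lowest members with RPS3 siRNA. At each of the 3 times TK1, FEN1, PCNA and MCM2 read below their p65 value on the RPS3 array, and MCM4, MCM5 and MCM7 did not. A second pattern followed time rather than the siRNA: MCM4, MCM5 and MCM7 were higher on both 6 h arrays than on any earlier array. Both arrays of a time may share their control RNA, and a change in a shared control could not be told apart from this pattern.

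**Figure D1:**
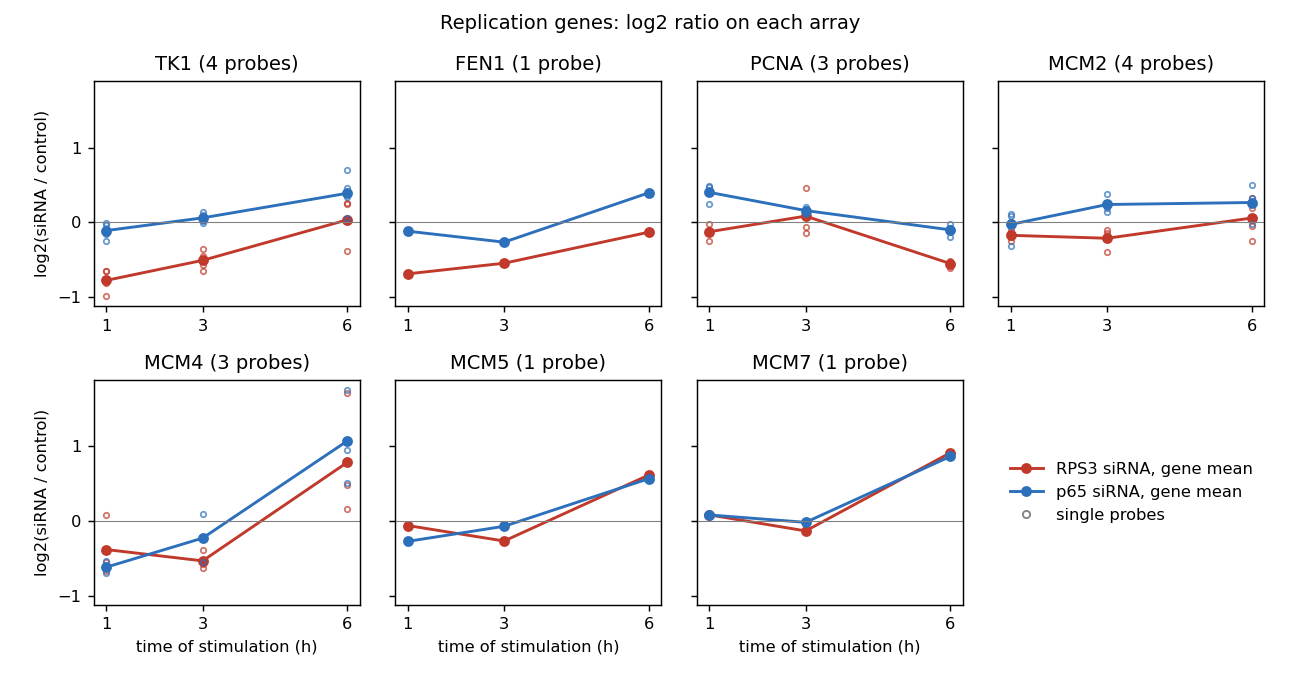
Log2 ratio of siRNA over control (vertical axis) against hours of stimulation (horizontal axis) for the 7 genes, RPS3 siRNA in red and p65 siRNA in blue; filled points joined by lines are gene means on 1 array and open circles single probes. The red line lies below the blue at all 3 times for TK1, FEN1, PCNA and MCM2, and the lines of MCM4, MCM5 and MCM7 cross and reach 0.57 to 1.07 at 6 h.

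TK1, which supplies thymidine monophosphate, read -0.78, -0.51 and 0.03 with RPS3 siRNA at 1, 3 and 6 h, and -0.11, 0.06 and 0.39 with p65 siRNA. The lowest values were those of RPS3 siRNA at 1 and 3 h, and the groups overlapped because the RPS3 array at 6 h lay above the p65 array at 1 h. The RPS3 mean of -0.42 ± 0.41 was 1.33-fold below control (limma unadjusted p = 0.0396, adjusted p = 0.540). The p65 mean was 0.11 ± 0.25 (adjusted p = 0.966). The difference, RPS3 minus p65, was -0.67, -0.57 and -0.36 at 1, 3 and 6 h and averaged -0.53 ± 0.16, or 1.44-fold (95% interval of the fit -1.08 to 0.02; limma adjusted p = 0.9996). Without the RPS3 array at 1 h the RPS3 mean was -0.24, and without that at 6 h it was -0.64.

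FEN1, the flap endonuclease, read -0.69, -0.55 and -0.13 with RPS3 siRNA and was the only member below 0 on all 3 of those arrays (15.5% of all features were). With p65 siRNA it read -0.12, -0.27 and 0.40. The p65 array at 3 h lay within the range of the RPS3 arrays, so the groups overlapped. Its RPS3 mean was -0.46 ± 0.29, or 1.37-fold below control (limma unadjusted p = 0.0229, adjusted p = 0.513), and its p65 mean was 0.0043 ± 0.35. The difference was -0.57, -0.28 and -0.53 at 1, 3 and 6 h, a mean of -0.46 ± 0.16 (95% interval -0.99 to 0.07; adjusted p = 0.9996). Without the p65 array at 6 h the fitted difference was -0.26, the smallest size with 1 array left out. The RPS3 array at 6 h then had no partner, so this value also holds the change over time. Without both 6 h arrays the difference was -0.43.

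PCNA, the sliding clamp, read -0.13, 0.08 and -0.55 with RPS3 siRNA and 0.40, 0.16 and -0.10 with p65 siRNA. Its lowest value was on the RPS3 array at 6 h, the time at which the other 6 genes had their highest RPS3 value. The means were -0.20 ± 0.32 and 0.15 ± 0.25, with limma adjusted p of 0.744 and 0.946. The siRNAs differed by -0.53, -0.07 and -0.45 at 1, 3 and 6 h, a mean of -0.35 ± 0.24 (95% interval -0.85 to 0.15). Without the RPS3 array at 6 h the RPS3 mean was -0.02 and the fitted difference, no longer matched in time, -0.17. Without both 6 h arrays the difference was -0.30.

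MCM2, a helicase subunit, read -0.17, -0.21 and 0.06 with RPS3 siRNA and -0.03, 0.24 and 0.27 with p65 siRNA. These were the narrowest ranges of the 7 genes. Its means were -0.11 ± 0.15 and 0.16 ± 0.16, and the difference was -0.15, -0.45 and -0.21 at 1, 3 and 6 h, a mean of -0.27 ± 0.16 (95% interval -0.65 to 0.11; limma adjusted p = 0.9996).

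The other helicase subunits did not share this order. MCM4 read -0.38, -0.53 and 0.79 with RPS3 siRNA and -0.62, -0.23 and 1.07 with p65 siRNA. MCM5 read -0.06, -0.27 and 0.62 against -0.27, -0.07 and 0.57. MCM7 read 0.08, -0.13 and 0.91 against 0.08, -0.02 and 0.87. In all 3 genes both 6 h values were the highest, with either siRNA. The mean differences between the siRNAs were -0.12 ± 0.31 for MCM4, 0.02 ± 0.21 for MCM5 and -0.02 ± 0.08 for MCM7. The fit's 95% intervals ran from -1.23 to 1.00, from -0.65 to 0.70 and from -0.78 to 0.74, which include differences of the size seen for TK1. The fit did not match the times, so these intervals also hold the change over time common to both siRNAs. Matched at 1, 3 and 6 h, the differences were 0.24, -0.30 and -0.29 for MCM4 and 0.21, -0.20 and 0.05 for MCM5. For MCM7 they were 0.0015, -0.115 and 0.049. With 1 array left out, the fitted difference of each of these 3 genes took both signs. It ran from -0.53 to 0.38 for MCM4, -0.24 to 0.27 for MCM5 and -0.33 to 0.26 for MCM7. The remaining arrays were then not matched in time, so these ranges also hold the change over time. Without both 6 h arrays the differences were -0.03 for MCM4, 0.0078 for MCM5 and -0.06 for MCM7.

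Against the background of the whole array, 5 of 7 members had a mean below 0 with RPS3 siRNA, where 47.1% of 7267 features did, and 0 of 7 with p65 siRNA, where 45.2% did. Without both 6 h arrays these counts were 7 and 4, in a fit of 8006 features whose share below 0 was not counted. Limma called 0 of 7267 features (0%) in each of the 3 siRNA comparisons at an adjusted p under 0.05, and the unadjusted p was under 0.05 for 636 with RPS3 siRNA, 360 with p65 siRNA and 185 for the difference, where 363 are expected by chance. TK1 and FEN1 were among the 4.76% of features that were lower with RPS3 siRNA at an unadjusted p under 0.05. For the difference 0 members reached that level, as 1.61% of features did in the lower direction, although 6 of 7 lay below 0 (50.8% of all features). Members lower with RPS3 siRNA at all 3 times numbered 4 of 7, against 15.9% of all features, and 0 of 7 were higher at all times, against 12.9%. No member had all RPS3 values below all p65 values, a pattern of 4.82% of features. By time, 4, 7 and 5 of 7 members were lower with RPS3 siRNA at 1, 3 and 6 h, and 54.5%, 48.5% and 50.4% of all features. The median difference of the members was -0.15, -0.28 and -0.29 at these times. Because these genes were chosen with earlier results of the same arrays known, the counts describe them and carry no p.

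The labels' ID numbers fall into 2 consecutive series, and the labels do not say what a series shares. ID series 1 held the p65 array at 1 h and the RPS3 array at 3 h, and ID series 2 the other 4. TK1 differed between the siRNAs by -0.40 within ID series 1 and -0.60 within ID series 2, and FEN1 by -0.43 and -0.48. PCNA differed by -0.32 and -0.37 and MCM2 by -0.18 and -0.31, so these 4 genes were lower with RPS3 siRNA in both ID series. MCM4 (0.09 and -0.22) and MCM7 (-0.21 and 0.07) differed in sign between the series, and MCM5 gave 0.01 and 0.03. ID series 2 held both arrays at 6 h, but its other arrays and those of ID series 1 were not matched in time. The differences at 1 h and at 3 h therefore each compared arrays of different ID series, and only those at 6 h lay within 1 series.

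**Figure D2:**
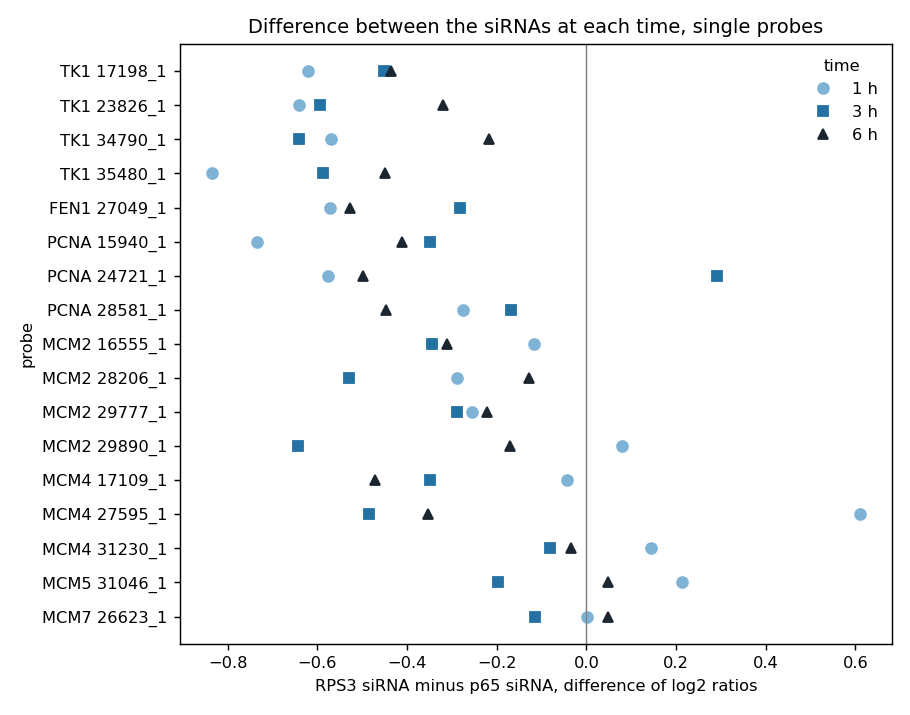
Difference of log2 ratios, RPS3 siRNA minus p65 siRNA (horizontal axis), for each of the 17 probes (vertical axis) at 1 h (circles), 3 h (squares) and 6 h (triangles); each point is 1 array minus 1 array. The points of all 4 TK1 probes lie left of 0, and those of MCM4, MCM5 and MCM7 fall on both sides except for MCM4 probe 17109_1.

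Single probes were then compared, since probes of a gene can disagree. With RPS3 siRNA, 14 of 17 probes averaged below 0 (49.6% of 10721 probes) and with p65 siRNA 0 of 17 (47.2%). Of the 17, 11 were lower with RPS3 siRNA at all 3 times, against 16.8% of all probes, and 0 were higher at all 3, against 12.6%. Limma called 7 of 10721 probes (0.0653%) with RPS3 siRNA when each probe was tested alone, none of them a member, and 0 in the other comparisons (0%), where 545 (p65 siRNA), 287 (difference) and 2701 (slope) had an unadjusted p under 0.05. Probes of 1 gene share their transcript and are not independent.

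The 4 TK1 probes gave differences of -0.50 ± 0.10, -0.52 ± 0.17, -0.48 ± 0.23 and -0.62 ± 0.20, each lower with RPS3 siRNA at all 3 times. Probe 17198_1 read -0.66, -0.36 and -0.38 with RPS3 siRNA and -0.03, 0.09 and 0.06 with p65 siRNA. It was 1 of 3 member probes, with MCM2 probes 16555_1 and 29777_1, whose siRNA groups did not overlap (4.90% of all probes). Its limma unadjusted p was 0.016 for the difference, with an adjusted p of 0.9996, and 0.00394 with RPS3 siRNA, with an adjusted p of 0.342. The TK1 probes parted at 6 h, where they ranged over 0.63 on the RPS3 array and 0.65 on the p65 array, against 0.33 at most before. There probe 17198_1 read -0.38 and 0.06, and probe 35480_1 read 0.26 and 0.70.

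PCNA probes 15940_1 and 28581_1 were lower with RPS3 siRNA at all 3 times, by -0.50 ± 0.21 and -0.30 ± 0.14. Probe 24721_1 read 0.46 on the RPS3 array at 3 h, where the other PCNA probes read -0.15 and -0.06, so the gene mean of 0.08 at that time rested on 1 probe. The MCM2 probes gave mean differences from -0.31 to -0.25. Probe 29890_1 of MCM2 was the exception at 1 h, where it was 0.08 higher with RPS3 siRNA. The MCM4 probes disagreed most: at 6 h probe 31230_1 read 1.72 and 1.75 on the RPS3 and p65 arrays, probe 17109_1 read 0.48 and 0.95, and probe 27595_1 read 0.16 and 0.51. At 1 h probe 27595_1 read 0.08 with RPS3 siRNA and -0.53 with p65 siRNA, while probe 31230_1 read -0.55 and -0.70.

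The comparison over time asked whether the ratios changed from 1 to 6 h. Since both channels of an array had the same time, a slope is a change relative to control and not the induction of the gene itself. MCM4 had the steepest slope at 0.30 ± 0.05 (SE) per hour (limma unadjusted p = 0.000733, adjusted p = 0.0866). Slopes of MCM7 (0.17 ± 0.05), MCM5 (0.16 ± 0.04), TK1 (0.13 ± 0.03) and FEN1 (0.11 ± 0.04) were also above 0, with adjusted p from 0.111 to 0.142. MCM2 had a slope of 0.05 ± 0.03 (adjusted p = 0.363). PCNA alone among the 7 sloped the other way, at -0.10 ± 0.04 (adjusted p = 0.182). In all, 5 of 7 members were among the 14.2% of features with a slope above 0 at an unadjusted p under 0.05, and PCNA, the only member below 0 (52.1% of all features), was among the 9.19% that were below 0 at that level; at an adjusted p under 0.05 limma called 0 of 7267 features (0%), with 1700 under 0.05 unadjusted.

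Most of these slopes depended on the 6 h arrays. The mean of both 6 h arrays exceeded that of the 4 earlier arrays by 1.37 for MCM4, or 2.59-fold, by 0.89 for MCM7 and by 0.76 for MCM5. In these 3 genes both 6 h values lay above all earlier ones, as they did for 22.4% of all features. TK1 and FEN1 were 0.55 and 0.54 higher at 6 h, and PCNA was 0.46 lower. Without both 6 h arrays the slopes were 0.11 for TK1, 0.06 for MCM2 and for MCM4, -0.0011 for FEN1, -0.0014 for MCM5, -0.0085 for PCNA and -0.08 for MCM7. MCM4 passed without the p65 array at 1 h (0.30 per hour, limma adjusted p = 0.0396), when 8.48% of features passed, and without the p65 array at 3 h (0.29, adjusted p = 0.0427), when 2.77% did. Blank cells were most frequent, and the T cell markers highest, on the same 6 h arrays, as given above, and their part in the slopes was not tested. The RPS3 transcript was also 1.07 higher in the mean of both 6 h arrays than in that of the earlier arrays. If the arrays of a time shared their control RNA, a change in that control could not be told apart from these slopes.

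**Figure D3:**
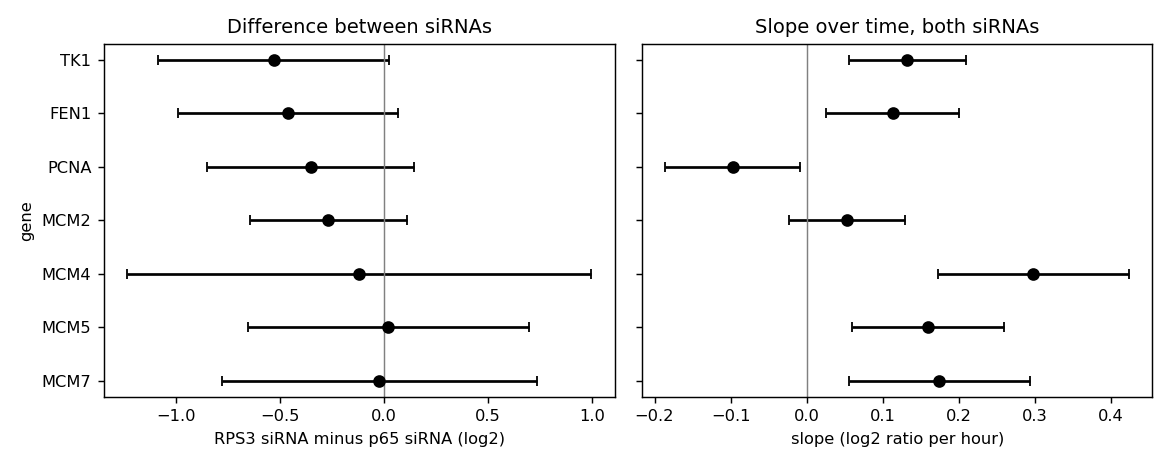
Fitted difference RPS3 siRNA minus p65 siRNA (left, log2) and fitted slope per hour over both siRNAs (right, log2 ratio per hour) for each gene, as points with 95% intervals of the limma fit, unadjusted. All 7 intervals of the difference include 0, and the slopes of MCM4 (0.30) and PCNA (-0.10) are the highest and the lowest.

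With a slope for each siRNA, PCNA sloped by -0.10 per hour with RPS3 siRNA and by -0.10 with p65 siRNA, and FEN1 by 0.11 with both. TK1 sloped by 0.16 and 0.10, and MCM4 by 0.25 and 0.35. The test of the difference between the slopes called 0 of 7267 features (0%; limma, 128 with an unadjusted p under 0.05), with a lowest adjusted p of 0.9999, and the lowest unadjusted p of a member was 0.415. The interval of that difference ran from -0.12 to 0.24 per hour for TK1 and from -0.36 to 0.16 for MCM4, which includes differences as large as the TK1 slope itself.

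Other replication genes were read from lists of related genes, none of which had a member that passed in any of the 4 comparisons. Origin licensing and firing genes had 9 of 25 tested. With RPS3 siRNA 8 of 9 averaged below 0, with a median of -0.25 against 0.01 for all features, and 7 of 9 lay lower than with p65 siRNA, with a median difference of -0.17. Of these, 2 were lower at all 3 times. The lowest differences were those of TICRR, a factor of origin firing (-0.34 ± 0.39), and GMNN, the licensing inhibitor geminin (-0.30 ± 0.33), and the highest those of TOPBP1 (0.07 ± 0.46) and the kinase gene CDC7 (0.01 ± 0.43).

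DNA polymerase, clamp loader and fork genes (21 of 42 tested) had 10 below 0 with RPS3 siRNA and a median of 0.02. They had 14 of 21 lower with RPS3 than with p65 siRNA, a median difference of -0.04, and 4 lower at all times (19%). RPA3, a subunit of the single-strand binding protein, read -0.19, -0.14 and -0.81 with RPS3 siRNA and 0.29, 0.11 and -0.40 with p65 siRNA, a difference of -0.38 ± 0.12. Its values were lowest at 6 h with both siRNAs, as were those of PCNA. The catalytic polymerase subunit POLE differed by -0.26 ± 0.15, while POLD3 (0.15 ± 0.08) and the histone chaperone ASF1A (0.26 ± 0.43) were highest.

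Deoxynucleotide synthesis genes (16 of 25 tested) had 10 below 0 with RPS3 siRNA, a median of -0.06, and 6 of 16 lower at all times (37.5%). RRM1, the large subunit of ribonucleotide reductase, differed by -0.40 ± 0.26 and DUT, the dUTPase, by -0.34 ± 0.32. The pyrimidine synthesis genes UMPS (0.11 ± 0.22) and CTPS1 (0.22 ± 0.10) were the highest of this list. E2F and G1/S cyclin genes (25 of 32 tested) had 15 below 0, a median of -0.06 and 6 lower at all times (24%). SKP2, which encodes a ubiquitin ligase subunit acting on cell cycle inhibitors, differed by -0.40 ± 0.12 (limma unadjusted p = 0.0465, adjusted p = 0.9996) and CCND3, cyclin D3, by -0.32 ± 0.16. CDC25A (0.21 ± 0.62) and CDK6 (0.19 ± 0.20) were highest.

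G2 and M phase genes (32 of 44 tested) were the list furthest from the background. All 32 averaged below 0 with RPS3 siRNA, with a median of -0.38, and 31 of 32 were lower than with p65 siRNA, with a median difference of -0.29. At all 3 times 23 of 32 (71.9%) were lower, against 4 of 7 (57.1%) of the replication fork and thymidine kinase genes. The median differences of both lists, -0.29 and -0.27, lay close together, but the replication genes had a median slope of 0.13 per hour and the G2 and M phase genes one of 0.0052. The lowest differences were those of CCNB1, cyclin B1 (-0.67 ± 0.14; limma unadjusted p = 0.0175, adjusted p = 0.9996), and of its partner kinase gene CDK1 (-0.62 ± 0.16), and the highest those of the mitotic kinase gene AURKA (-0.10 ± 0.53) and the phosphatase gene CDC25B (0.0052 ± 0.06).

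T cell markers had 3 of 17 lower at all times (17.6%). CD1A (-0.30 ± 0.18) and the receptor-proximal kinase gene LCK (-0.18 ± 0.21) differed lowest, and the kinase gene ZAP70 (0.52 ± 0.14) and the adhesion receptor gene CD2 (0.54 ± 0.16; limma unadjusted p = 0.0066, adjusted p = 0.9996) highest. Markers of other lineages had 6 of 22 lower at all times (27.3%), with the lowest differences for the monocyte marker CD14 (-0.44 ± 0.012) and the endothelial marker VWF (-0.44 ± 0.84) and the highest for the platelet marker PF4 (0.19 ± 0.55) and the myeloid integrin gene ITGAM (0.22 ± 0.33).

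**Figure D4:**
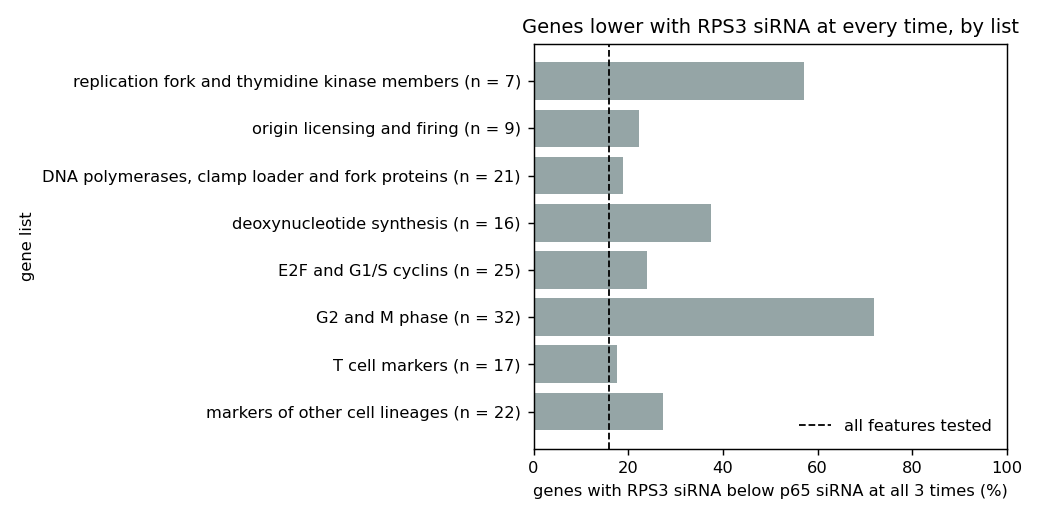
Percent of tested genes (horizontal axis, from 0) that read lower on the RPS3 than on the p65 array at all 3 times, for each gene list (bars, n genes tested); the dashed line is the value for all features, 15.9%. G2 and M phase genes (71.9%) and the replication fork and thymidine kinase genes (57.1%) are furthest above the line.

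The members did not form a single pattern. The root mean square difference of a gene from the mean profile of the 7 members over the 6 arrays was 0.17 for MCM2, 0.20 for MCM5, 0.23 for TK1, 0.27 for FEN1, 0.36 for MCM7, 0.41 for MCM4 and 0.49 for PCNA. The mean profile itself was -0.30, -0.30 and 0.25 with RPS3 siRNA and -0.10, -0.02 and 0.49 with p65 siRNA at 1, 3 and 6 h. Among 1048 other genes that varied at least as much, the closest were CHI3L2 (0.08), PECAM1 (0.10), SHMT2 (0.11), MOB3A (0.11) and PGAM2 (0.11). SHMT2, a mitochondrial enzyme of one-carbon metabolism, was in the deoxynucleotide list, and PECAM1 was in the list of other lineage markers.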

How the data were processed

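Spotted 2-colour arrays of Jurkat RNA were analysed, 3 per siRNA. The deposited values were log ratios of both channels, used as log2; the authors' scanning, background correction, blank rule and normalization are not given in the sources used here, and channel intensities were not used here. Deposited medians lay between -0.019 and 0.007. Arrays were centred on their medians and probes of 1 platform symbol averaged on each (10169 of 15246 probes had 1 symbol, 4 had several and 5073 none; 10128 matched a current gene record). Features without blanks (7267) entered limma 3.58.1 (lmFit and eBayes; R 4.3.3): the mean of each siRNA against 0, their difference, and the slope per hour with siRNA in the fit. An adjusted p (Benjamini-Hochberg) under 0.05 passed. The times of a siRNA stand as its replicates. The labels do not name separate cultures, so p-values reflect array-to-array spread that may be technical. In the tests of the siRNA means and of their difference, that spread also holds the change over time. The ratios hold the spread of the siRNA and control RNA together, so tests against 0 cannot separate them. These tests also keep any dye effect shared by the arrays. Precision is limited by the number of arrays.

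The members and gene lists were chosen with earlier results of these data known. Named genes were all members, the 2 lowest and 2 highest differences of each list, and the 5 genes closest to the mean profile. The slope per siRNA and the differences within an ID series were added after seeing the data. Fits were tested on simulated data. Other settings were the centring, quantile normalization, probe summary, blank filter, time block, ID series, trend and robust eBayes, and each array or both 6 h arrays left out.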

Additional observations from a re-analysis of the deposited data

Results flagged for a closer look

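Some members had every array of one time on one side of 0 and every array of another time on the other. The share of all features with this pattern was not counted, so the list does not set these genes apart. A related pattern, both 6 h arrays above all earlier ones, held 22.4% of all features. These differences between 2 times, with 2 arrays each, were not tested as such, and the slopes above did not pass. MCM4 averaged -0.50 at 1 h, -0.38 at 3 h and 0.93 at 6 h, so 6 h differed by 1.43 from 1 h and by 1.31 from 3 h. MCM5 averaged -0.17 at 1 h, -0.17 at 3 h and 0.59 at 6 h, differences of 0.76 and 0.76. MCM7 averaged 0.08, -0.08 and 0.89, so 3 h differed from 1 h by -0.16 and 6 h from 3 h by 0.97. TK1 differed by 0.66 between 1 h (-0.44) and 6 h (0.21), and MCM2 by 0.26 (-0.10 and 0.16). PCNA went the other way, by -0.45 between 3 h (0.12) and 6 h (-0.33).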

How the results depend on the processing

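Each member was refitted under 15 alternatives per siRNA comparison and 14 for the slope, 413 values in all; 379 kept their direction and side of the threshold, 32 changed sign and 2, both for the MCM4 slope, passed as given above. The differences of TK1, FEN1, PCNA and MCM2 kept their sign in all 15, from -0.76 to -0.35, -0.62 to -0.26, -0.49 to -0.17 and -0.36 to -0.21. Single probes gave no one value for a gene and stand in the report. The paired analysis used the time point as a replicate block. Deviations of same-time arrays from their siRNA means correlated at 0.01, 0.0961 and 0.756 at 1, 3 and 6 h, so the times did not pair all arrays. By these deviations the RPS3 array at 1 h was most like the p65 array at 3 h. The RPS3 array at 3 h was most like the p65 array at 1 h. Both of these pairs lay within an ID series. With the block 3 features passed with RPS3 siRNA and 2 for the difference, no member among them (TK1 adjusted p = 0.174 and 0.771, FEN1 0.167 and 0.771); a slope cannot be fitted beside it.

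Calls with RPS3 siRNA were 2 with quantile normalization, 7 with single probes, 2 without both 6 h arrays and 0 to 2 with 1 array left out. Quantile normalization gave 1 call for the difference and 1 for the slope, and leaving out 1 array gave 0 to 628 for the slope. Members below 0 with p65 siRNA were 1 without further centring, 1 with quantile normalization, 3 with ID series as a covariate, 4 without both 6 h arrays and 0 to 4 with 1 array left out. Members with a slope below 0 were 4 without both 6 h arrays. The shares of all features below 0 were not counted under these settings.

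Signs turned without both 6 h arrays for the RPS3 means of MCM5 (-0.16) and MCM7 (-0.0253), for the p65 means of TK1 (-0.0255), FEN1 (-0.19), MCM4 (-0.42) and MCM5 (-0.17), and for the slopes of FEN1 (-0.0011), MCM5 (-0.0014) and MCM7 (-0.0786). With ID series as a covariate the p65 means of FEN1 (-0.0224), MCM4 (-0.0733) and MCM5 (-0.0146) turned. The p65 mean of FEN1 also turned without further centring (-0.0010) and with quantile normalization (-0.0024), and the MCM5 difference with quantile normalization (-0.0457). With 1 array left out, RPS3 means ran from -0.46 to 0.20 for MCM4, -0.16 to 0.28 for MCM5 and -0.0252 to 0.50 for MCM7. The p65 means ran from -0.0255 to 0.22 for TK1, -0.19 to 0.14 for FEN1, -0.42 to 0.42 for MCM4 and -0.17 to 0.25 for MCM5. The differences ran from -0.53 to 0.38 for MCM4, -0.24 to 0.27 for MCM5 and -0.33 to 0.26 for MCM7. With 1 array left out the siRNAs were not matched in time, so these differences also hold the change over time. The cause was not tested. Signal over background is unknown.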
